A study of Mus musculus with 2 samples.

Results

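NK-receptor-rich Cd4-negative cells of the mouse liver, a T cell population with the look of natural killer T (NKT) cells, were followed in a single-cell RNA-Seq experiment on CD45+ hepatic leukocytes. The members were chosen from the transcript counts themselves. A barcode, which tags the RNA of 1 droplet, was a member when it had at least 1500 unique molecular identifiers (UMIs, each counting 1 captured transcript) with under 10% of them from mitochondrial genes, at least 1 UMI of Trac and at least 1 of Cxcr6, and at least 2 UMIs summed over Klrc1, Klrc2 and Klrk1. It also had 0 UMIs of Cd4, Trav11, Ncr1 and Cd8b1, fewer than 2 UMIs summed over Icam1 and Tnfrsf9, and fewer than 8 summed over the 5 interferon genes Ifit1, Ifit3, Isg15, Rsad2 and Usp18. Of 16052 barcodes that passed the UMI and mitochondrial limits (quality barcodes), 2016 were members. These were 1206 of 7050 in the antibiotics library and 810 of 9002 in the vehicle library.

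The antibiotics library came from livers of mice given ampicillin (1 mg/mL), metronidazole (1 mg/mL), neomycin (0.5 mg/mL) and vancomycin (0.5 mg/mL) orally for 1 week, and the vehicle library from mice given vehicle over that time. Both groups were females of 6 weeks of age, no transgene or deletion is given for either, and leukocytes were purified by fluorescence-activated sorting on CD45. There was 1 library for each condition, with the number of mice behind it not given, so the difference between libraries has no replicate check and no p-value is given. Intervals in the text are 95% intervals that cover counting error only. The series asks how the microbiome governs hepatic immunity through NKT cells.

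NKT cells are T cells that carry receptors of natural killer (NK) cells. Type I (invariant) NKT cells recognize glycolipids presented by CD1d through a T cell receptor whose alpha chain uses the Trav11 segment, while other NKT-like cells have other chains. In the liver they lodge along the sinusoids, where CXCR6 binds CXCL16 on the endothelium. Klrc1 and Klrc2 encode NKG2A and NKG2C, which pair with CD94 (Klrd1) and read the class I molecule Qa-1, and Klrk1 encodes NKG2D, which reads stress-induced ligands. Because the rule demanded UMIs of Trac, Cxcr6 and the receptor genes, their presence in members is a description of the choice and not a result.

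The libraries held 29811401 UMIs with antibiotics and 41474311 with vehicle over all barcodes, and quality barcodes had a median of 3331 and 3515 UMIs. Members had a median of 3577.5 UMIs from 1340 genes with antibiotics and 4048.5 UMIs from 1498.5 genes with vehicle, with mitochondrial medians of 2.005% and 1.70%. Both libraries used the same barcode set, and 93 quality barcodes, 1 of them a member, occurred in both. Doublets were called with Scrublet but kept. They made up 2.32% of antibiotics members and 4.94% of vehicle members.

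The receptor genes of the rule sit close together. Klrk1 (GRCm38 chromosome 6, 129610323 to 129623864, minus strand), Klrc2 (129647496 to 129660689, minus) and Klrc1 (129666015 to 129678973, minus) neighbor Klrd1 (129591782 to 129598775, plus), and Klrb1c, which encodes NK1.1, lies at 128778485 to 128789215 on the minus strand. Of 23 listed NK receptor genes with a position, 22 lie on chromosome 6 within 8.12 Mb. Cxcr6 lies on chromosome 9 (123806475 to 123811760, plus) and Trav11 on chromosome 14 (53519303 to 53519859, plus).

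Near-identical genes bear on the rule and on the marker Tcrg-C1, so their coding ends are shown, 5′ to 3′ as coded, from the GENCODE vM21 annotation of GRCm38. The last 60 coding bases of the gamma-chain constant genes on chromosome 13 follow, with capitals for bases that differ from Tcrg-C1.
Tcrg-C1: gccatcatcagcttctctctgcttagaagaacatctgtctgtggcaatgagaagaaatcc
Tcrg-C2: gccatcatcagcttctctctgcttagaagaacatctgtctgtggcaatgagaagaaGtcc
Tcrg-C4: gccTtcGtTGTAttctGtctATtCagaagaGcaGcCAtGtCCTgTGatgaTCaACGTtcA
Tcrg-C1 (19214103 to 19217024, plus) and Tcrg-C2 (19304649 to 19307551, minus) shared 59 of these 60 bases and Tcrg-C4 (19344558 to 19352756, plus) shared 33 with Tcrg-C1, so UMIs may be split between Tcrg-C1 and Tcrg-C2 and neither level is certain on its own. The alpha segment Trav11 on chromosome 14 has the copies Trav11d and Trav11n, which are identical to it over the 60 bases shown (ending 1 base before the end of its annotated sequence).
Trav11: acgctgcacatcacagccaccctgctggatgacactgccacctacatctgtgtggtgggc
The rule required 0 UMIs of Trav11 alone. Of 145 members with a UMI of any alpha segment, 5 had one of Trav11d or Trav11n. All other members had no UMI of an alpha segment, so 0 UMIs of Trav11 does not show that the chain was absent.

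Members made up 17.1% (16.2 to 18.0) of quality barcodes with antibiotics and 8.998% (8.41 to 9.61) with vehicle, a ratio of 1.90 (1.74 to 2.08). The difference built up along the rule. Barcodes with Trac were 73.2% against 55.0%, barcodes with Trac and Cxcr6 were 59.8% against 39.8%, and those that also had the receptor sum were 24.6% against 15.6%. Shares within 1 library are not independent, and B cells were 21.6% of quality barcodes with antibiotics and 38.3% with vehicle. Among barcodes with Trac and Cxcr6 the members' share was 28.6% against 22.6% (ratio 1.27, 1.16 to 1.39). Against only the most similar barcodes, which met the same rule with a Cd4 UMI and any receptor sum (Cd4-positive) or with a receptor sum of 0 or 1 (NK-receptor-low), it was 36.6% against 31.5% (ratio 1.16, 1.06 to 1.27). The NK-receptor-low share was 23.4% with antibiotics and 13.4% with vehicle and the Cd4-positive share was 6.17% and 6.11%. With every barcode thinned to 1500 UMIs the ratio of the members' shares was 1.70, and with members left out that had at least 2 UMIs of other cell types' markers it was 2.35. Cell numbers per liver were not measured here, so a share says nothing of the absolute number of members.

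**Figure D1:**
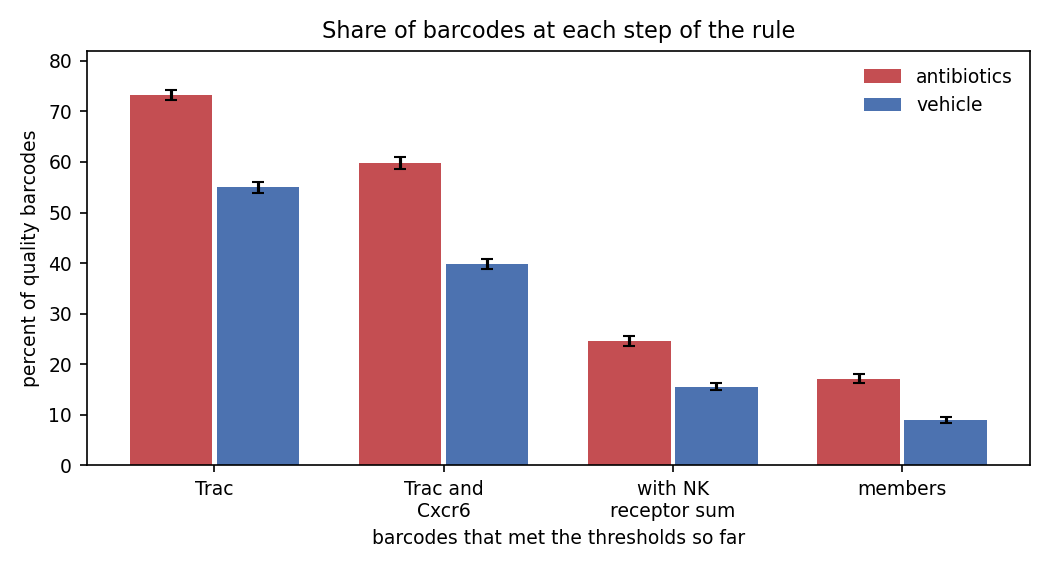
Percent of quality barcodes (y axis) that met the thresholds so far (x axis, from Trac alone to the whole rule), antibiotics in red and vehicle in blue. Bars are shares of 1 library and lines their 95% Clopper-Pearson intervals, and the antibiotics share is above the vehicle share at each step, ending at 17.1% against 8.998% for members.

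Members were set against cells that should carry or lack each marker to check the name. Zbtb16, which encodes the NKT transcription factor PLZF, had 40.9 CPM with antibiotics and 40.4 CPM with vehicle in members. This was below the 52.3 and 60.9 CPM of Cd4-positive cells, the 56.3 and 63.6 CPM of NK-receptor-low cells and the 45.3 and 67.3 CPM of cells with a Trav11 UMI (Trav11-positive), and above the 1.53 and 0.656 CPM of Cd8b1-positive T cells without Cxcr6 (CPM, counts per 1e6 UMIs of the population, antibiotics before vehicle). At 1500 UMIs a cell, Zbtb16 was seen in 6.80% and 5.93% of members and in 1.12% and 0.551% of B cells, which should lack it, against 13.8% and 15.4% of members without thinning. The marker Tcrg-C1 did not set members apart from their relatives. Its level was 168 CPM with antibiotics and 228 CPM with vehicle, beside 116 and 163 CPM in Cd4-positive, 138 and 199 CPM in NK-receptor-low and 145 and 189 CPM in Trav11-positive cells, and 12.3 and 6.56 CPM in Cd8b1-positive cells. Gamma constant transcripts occur in alpha-beta T cells too, and Trdc, the delta-chain constant gene, had 37.2 CPM with antibiotics and 72.5 CPM with vehicle and was seen at 1500 UMIs in 2.40% and 3.33% of members and 0.723% and 1.04% of B cells. Eomes, the factor of conventional NK cells, was near 0 (0.217 against 0.564 CPM), and no UMI of Sox13 or Il17a, genes of IL-17-producing gamma-delta cells, was found in any member, which allows cells with such a UMI up to 0.249% with antibiotics and 0.370% with vehicle.

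The beta segments were read in few members, since a 3′ library rarely reaches them. Trbv1, Trbv29 or a Trbv13 segment, which are frequent in invariant NKT cells, was found in 33 of 108 antibiotics members with any beta segment (30.6%, 22.1 to 40.2) and in 22 of 52 vehicle members (42.3%, 28.7 to 56.8). The intervals overlap widely. Over both libraries the share was 34.4% of members, 39.3% of Cd4-positive cells, 45.5% of NK-receptor-low cells, 40.0% of Trav11-positive cells and 13.04% (3 of 23) of Cd8b1-positive cells. Trbv12-2 was the most common entry, in 48.8% of members with any beta segment, beside 34.8% in Cd8b1-positive cells. Among 272 members with a gamma variable segment, Trgv2 made up 84.6% and Tcrg-V4 15.4%, and Trgv2 was 87.8% in NK-receptor-low cells and 88.8% in Trav11-positive cells. The members thus carried PLZF transcripts at or below the level of their Cxcr6-positive relatives. Even Trav11-positive cells had a share of only 40.0% for Trbv1, Trbv29 or Trbv13. These few reads therefore cannot show NKT-like segment use or rank the populations by it. The name NKT-like is kept for the rule. Trav11 UMIs were excluded by the choice of cells, but most members had no UMI of any alpha segment. Members may therefore include cells with the invariant chain.

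Set against Cd4-positive cells, for which no receptor sum was required, members had more transcript of other NK receptors and of a small group of effector genes, in both libraries. Genes with at least 50 UMIs in the comparison were measured, and a gene was called when it was at least 1.5-fold higher, or lower, in each library. Of 7072 genes, 37 were higher (0.523%) and 31 were lower (0.438%). The rule genes Klrc1, Klrc2 and Klrk1 were higher by the choice of cells, and of the other 9 measured NK receptor genes 6 were higher, with a median log2 ratio over the 9 of 1.41 with antibiotics and 1.33 with vehicle. Klrd1, the CD94 partner of NKG2A and NKG2C, had 454 against 234 CPM with antibiotics (ratio 1.94, 1.75 to 2.15) and 605 against 240.4 CPM with vehicle (2.52, 2.31 to 2.75). Klre1, a receptor that pairs with Klri proteins, had ratios of 2.92 and 2.94. The Ly49 gene Klra1 had ratios of 5.99 and 2.99 at low levels, and Klra3, Klra7 and Klra9 were the remaining higher receptors (Klra7 was under the UMI minimum without members that had a Cd8a UMI, an alternative chosen after seeing the data).

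Among other genes higher in members than in Cd4-positive cells, Ly6c2, a surface protein of memory and effector lymphocytes, had 786 against 458 CPM with antibiotics (ratio 1.72, 1.59 to 1.85) and 835 against 490.4 CPM with vehicle (1.70, 1.60 to 1.82). Cd7, a surface protein of T and NK cells, had ratios of 1.90 and 1.71, which were 1.75 and 1.24, and no longer called, without members that had a Cd8a UMI. Fgl2, a fibrinogen-like effector protein, had ratios of 1.82 and 1.56. The granule protease gene Gzmb had ratios of 2.42 and 2.24, and Gzma was the other of 2 granule genes higher, with ratios of 0.764 and 1.15 without members that had a Cd8a UMI. Fcer1g, the signaling chain of activating NK receptors, had ratios of 2.81 and 3.44 (2.42 and 2.21 without members that had a Cd8a UMI), and Trdc 4.44 and 5.42. The heat shock gene Hspa1a had ratios of 5.81 and 1.68, from 12.2 and 237 CPM in members. Its UMIs were seen in only 12 antibiotics members (0.995%) and 4 antibiotics Cd4-positive cells (0.9195%), without thinning. With vehicle the shares were 30.6% of members and 28.5% of Cd4-positive cells. The share of cells with Hspa1a thus hardly differed, and the ratio of 5.81 rested on few cells. Of 19 homing and residency genes 3 were lower and none higher, with list medians of 0.03 and -0.02 on the log2 scale. S1pr1, the receptor for egress from tissue, had ratios of 0.531 and 0.428, Ccr7, the lymph node homing receptor, 0.427 and 0.365, and the integrin gene Itga4 0.423 and 0.595. Themis, a regulator of T cell receptor signaling, had ratios of 0.602 and 0.497, Slamf6 0.538 and 0.522 and the unnamed gene model Gm8369 0.621 and 0.523. No gene of the innate-like T transcription factor list was called against Cd4-positive cells.

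The rule for NK-receptor-low cells differed from that for members in the receptor sum alone. Of 7975 genes, 34 were higher in members (0.426%) and 40 were lower (0.502%). With the 3 rule genes set aside, since the rule fixed their difference, 6 of the other 10 measured NK receptor genes were higher, with median log2 ratios over the 10 of 1.62 and 2.08. For Klrd1 the values were 454 against 163 CPM with antibiotics (ratio 2.78, 2.58 to 2.995) and 605 against 159 CPM with vehicle (3.81, 3.52 to 4.13). Klre1 had ratios of 13.5 and 10.1, Ly6c2 1.86 and 2.05, Fgl2 1.79 and 1.60 and Gzmb 2.51 and 2.11, and these 4 genes were called against either population with and without members that had a Cd8a UMI. Cd7 had ratios of 1.72 and 1.58, and 1.59 and 1.15, not called, without those members. The adaptor genes Fcer1g and Tyrobp had ratios of 6.09 and 2.43 and of 2.39 and 2.08. Without members that had a Cd8a UMI, Fcer1g had 5.25 and 1.56 and Tyrobp 2.07 and 1.35. Clnk, an adaptor of immunoreceptor signaling, had ratios of 3.07 and 2.31. Among the lower genes were Tcf7, the factor of naive and memory T cells (0.610 and 0.539), Themis (0.654 and 0.578), the gut homing receptor Ccr9 (0.589 and 0.569) and Emb (0.619 and 0.494). Igkc, an immunoglobulin gene with ratios of 0.350 and 0.299, and the myeloid gene Lyz2, with 0.259 and 0.239, were lower in members too. Of 14 measured B cell genes 1 was lower and none higher, and of 5 myeloid genes 2 were higher (Fcer1g and Tyrobp) and 1 lower.

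**Figure D2:**
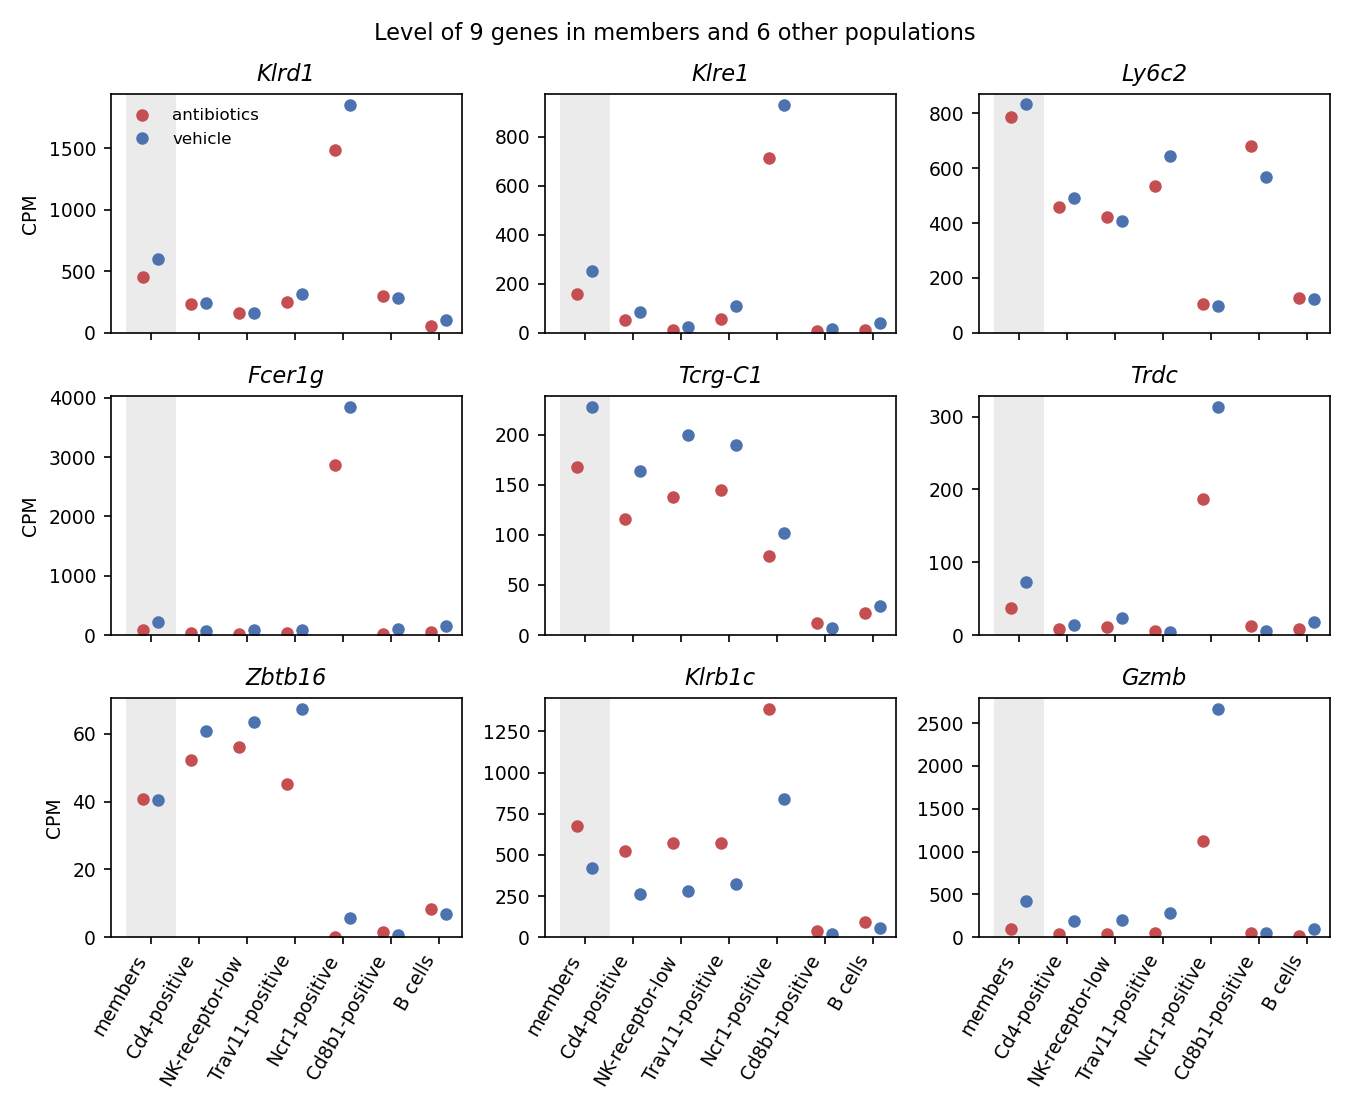
CPM (y axis, linear, own scale per gene) of 9 genes in members (grey band) and 6 other populations (x axis), antibiotics in red and vehicle in blue, 1 point per library. Klrd1 and Klre1 are higher in members than in Cd4-positive, NK-receptor-low and Trav11-positive cells and lower than in Ncr1-positive cells, Tcrg-C1 is close among the Cxcr6-positive T cells, and Klrb1c and Gzmb differ between libraries in the same direction in each of them.

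Ncr1-positive cells, which lack Trac and have Cxcr6 and Ncr1 as type 1 innate lymphoid cells do, serve as a reference for the level of these genes. Members had 454 and 605 CPM of Klrd1, against 1486 and 1857 CPM in Ncr1-positive cells. For Klre1 members had 158 and 252 CPM, against 714 and 932, and for Fcer1g 85.2 and 214 CPM, against 2864 and 3845 in Ncr1-positive cells. For Fcer1g the level in members was thus far below that in Ncr1-positive cells, and for Klrd1 it lay between Ncr1-positive and Cd4-positive cells. Values at the threshold on the receptor sum were as follows. Members with the smallest sum of 2 (220 with antibiotics, 153 with vehicle) had 355 and 427 CPM of Klrd1, and barcodes just outside with a sum of 1 (335 and 201) had 238 and 266 CPM. Barcodes with a sum of 0 had 144 and 137 CPM, and members with 3 or more had 476 and 647 CPM. Tcrg-C1 had 130.2 and 219 CPM just inside and 151 and 268 CPM just outside, with no such order.

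Members were split by which receptor genes of the rule had a UMI. The shares are a description, since the rule required a sum over these genes, and they were taken without thinning. Klrk1 with Klrc1 or Klrc2 was read in 57.5% of antibiotics members and 55.6% of vehicle members, Klrk1 alone in 30.3% and 31.0%, and Klrc1 or Klrc2 alone in 12.2% and 13.5%, with a receptor counted as absent when it had no UMI. Members with Klrc1 or Klrc2 alone had more Klrd1 than those with Klrk1 alone, 623 against 296 CPM (ratio 2.10, 1.82 to 2.43) with antibiotics and 653 against 484 CPM (ratio 1.35, 1.17 to 1.56) with vehicle. Gzmb stood at 103 against 57.9 CPM with antibiotics and 475 against 252 CPM with vehicle in the same contrast, and Ccl5, a chemokine that draws lymphocytes, at 4749 against 3389.6 CPM with antibiotics and 4533 against 3104 CPM with vehicle. A receptor sum of 5 or more was found in 52.1% and 53.0% of members. Those had more Klre1 than members with a sum of 2, 224 against 53.96 CPM (ratio 4.15, 3.07 to 5.74) with antibiotics and 341 against 124 CPM (ratio 2.76, 2.20 to 3.51) with vehicle, while Il4, a cytokine of NKT cells, had 51.8 against 76.2 CPM with antibiotics and 78.2 against 109 CPM with vehicle.

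A small group of members had a UMI of Cd8a and was chosen for description after the values were seen. It comprised 15 antibiotics members (1.24%, 0.698 to 2.04) and 38 vehicle members (4.69%, 3.34 to 6.38), none with a UMI of Cd8b1, which the rule excluded. Gzma, a granule protease, had 1492 against 17.6 CPM (ratio 84.8, 61.5 to 117) with antibiotics and 1305 against 64.9 CPM (ratio 20.1, 16.6 to 24.4) with vehicle in members with over without Cd8a. These intervals treat UMIs as independent, yet 1 antibiotics member held 35 UMIs of Gzma even after thinning. How Gzma UMIs were spread over the 15 antibiotics members with Cd8a was not tested. The antibiotics ratio may therefore rest on few cells, and its interval may be too narrow. Ly49 receptor Klra7 had 239 against 9.02 CPM with antibiotics and 393 against 27.6 CPM with vehicle, Fcer1g 1068 against 73.4 CPM with antibiotics and 1758 against 138 CPM with vehicle and Cd7 1584 against 202 CPM with antibiotics and 2461 against 277 CPM with vehicle. Ccl5 was also higher in them, 12357 against 4004 CPM (ratio 3.09, 2.85 to 3.33) with antibiotics and 15100.2 against 3459.8 CPM (ratio 4.36, 4.18 to 4.56) with vehicle. Trac was lower there, 921 against 1256 CPM with antibiotics and 983 against 1398 CPM with vehicle, and median UMIs were 3160 with and 3584 without Cd8a in the antibiotics library. Members with a UMI of Trdc (45 and 35) had less Trac too, 948 against 1265 CPM with antibiotics and 863 against 1404 CPM with vehicle, and more Cd7, 443 against 208 CPM (ratio 2.13, 1.69 to 2.66) with antibiotics and 1384 against 331 CPM (ratio 4.18, 3.61 to 4.82) with vehicle. Whether these barcodes are 1 cell with both sets of genes or 2 cells in 1 droplet was not tested. Since 1.24% of antibiotics members against 4.69% of vehicle members had Cd8a, values without them stand beside several of the results that moved.

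**Figure D3:**
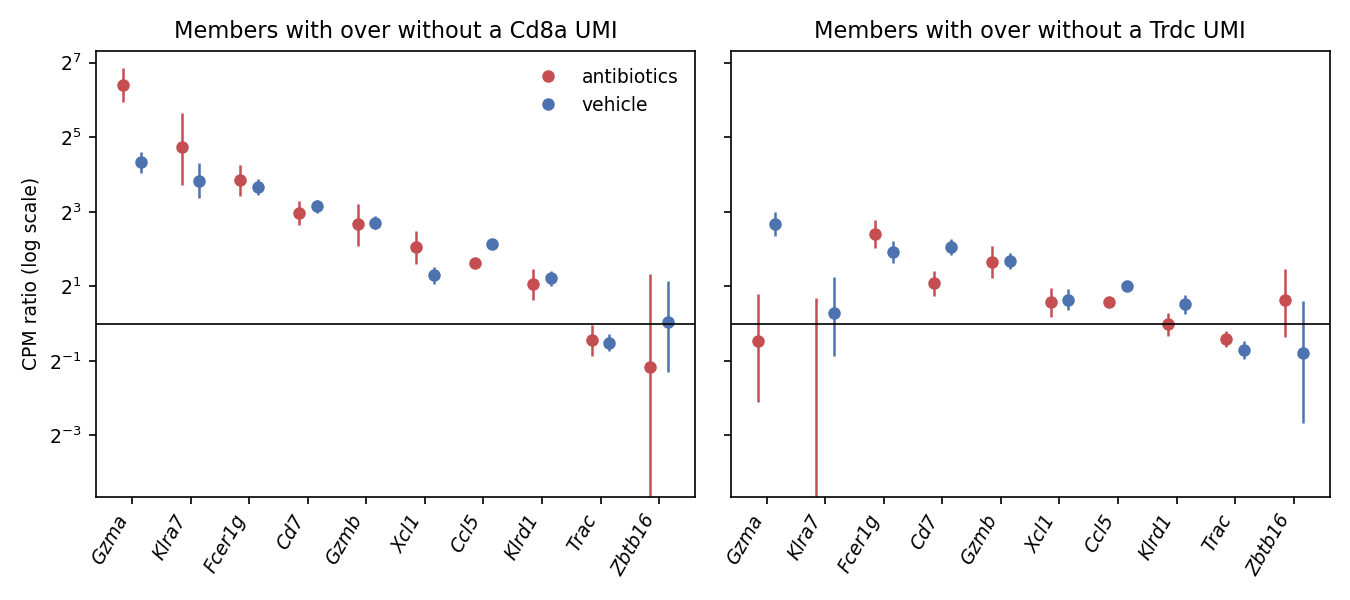
CPM ratio (y axis, log scale) of 10 genes (x axis) in members with over members without a Cd8a UMI (left) or a Trdc UMI (right), antibiotics in red and vehicle in blue, with 95% counting intervals. Klra7 has a line and no point in the antibiotics library on the right because its count there was 0, and lines are cut at the lower edge. Gzma, Klra7 and Fcer1g are far above 1 in members with Cd8a in both libraries, and Trac is below 1 in both panels.

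The antibiotics and vehicle members were then compared gene by gene over summed UMIs, with ratios given as antibiotics over vehicle. Of 7933 genes with at least 50 UMIs over both libraries, 409 were at least 1.5-fold higher with antibiotics (5.16%) and 522 at least 1.5-fold lower (6.58%), and the median log2 ratio was -0.02. This split depends on the scaling. With ribosomal, mitochondrial and rule genes left out of the totals (the ribosome-free total), log2 ratios shifted by 0.16 and their median was 0.14, 773 genes were higher and 296 lower, and counts under that total stand beside each list it moved. Each list count below is to be read beside the shares over all genes, 5.16% higher and 6.58% lower. By the ribosome-free total these were 773 and 296 of 7933. RNA of other cells moved with the condition as well. B cell markers were lower in antibiotics members for 11 of 14 measured genes (summed 1818 against 3833 CPM), myeloid markers for 7 of 7 (319 against 884 CPM), hepatocyte markers for 2 of 3 (57.8 against 137 CPM) and neutrophil markers for 2 of 2 (16.9 against 39.8 CPM). NK and innate lymphoid markers were lower for 5 of 7, or 4 by the ribosome-free total (381 against 793 CPM, with Ncr1 at 0 by the rule) and gamma-delta markers for 2 of 4, or 1 (532 against 789 CPM, with Sox13 at 0). Both lists hold genes treated here as the members' own, such as Klre1, Klra9 and the gamma constant genes. Fcer1g and Tyrobp are counted in the NK and innate lymphoid list and in the myeloid list. The NK, innate lymphoid and gamma-delta counts therefore do not show RNA of other cells on their own. The myeloid count and sum do so only in part. The myeloid genes Cst3, Lyz2, Ly86, C1qa and C1qb, which are not treated here as the members' own, were lower as well. Endothelial markers had 67.6 against 77.3 CPM in sum with Stab2 at 0, and red cell markers 9.996 against 34.99 CPM. Their part in the results below was not tested beyond the values given without barcodes that held at least 2 such UMIs.

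**Figure D4:**
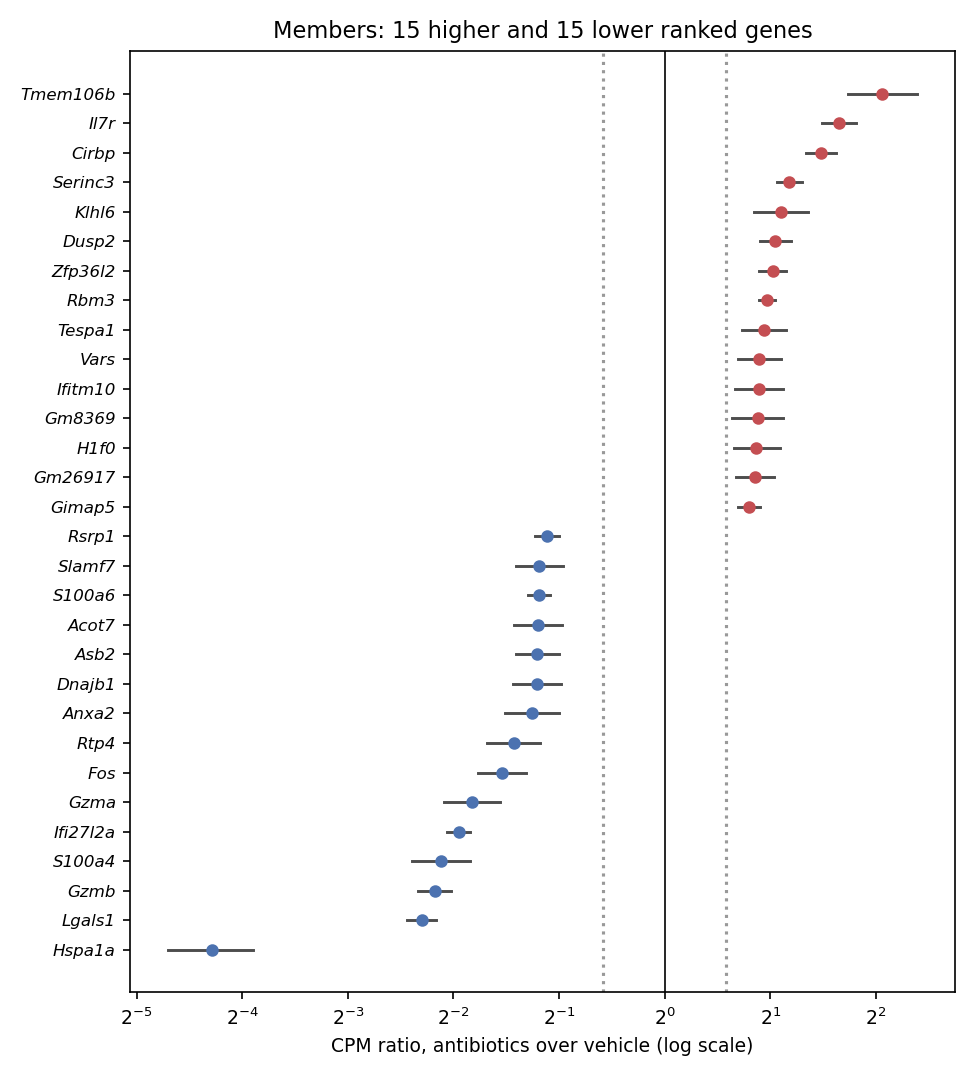
CPM ratio of antibiotics over vehicle members (x axis, log scale) for the 15 higher and 15 lower genes whose nearer interval bounds lay farthest from 1, where the higher library had 100 CPM or more. Points are ratios, lines 95% counting intervals and dotted lines 1.5-fold either way. Il7r stands at 3.13 and Tmem106b at 4.17 among the higher genes, and Lgals1 at 0.203, Gzmb at 0.221 and Hspa1a at 0.0513 among the lower ones.

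NK receptors were divided. Of 17 measured genes 2 were higher and 9 lower with antibiotics (7 lower by the ribosome-free total), and the list's median log2 ratio was -0.64, with -0.68 to -0.36 over all settings tried, beside -0.02 for all genes. The list includes the rule genes Klrc1, Klrc2 and Klrk1. Of the other 14 measured genes 2 were higher and 9 lower, with a median of -0.75. Without members that had Cd8a, the whole list's median was -0.41 over the genes still measured. The NK1.1 gene Klrb1c was higher, with 678 CPM with antibiotics and 419 CPM with vehicle (ratio 1.62, 1.52 to 1.72). At 1500 UMIs a cell it was read in 63.7% (60.9 to 66.4) of antibiotics members and 43.2% (39.8 to 46.7) of vehicle members, and in 6.84% and 4.21% of B cells (88.1% and 73.5% of members without thinning). Its neighbor in the same family, Klrb1f, was higher at 38.7 against 20.9 CPM. Ly49 genes, whose products read class I molecules, were lower in a group. Klra7 had 11.7 CPM with antibiotics and 44.9 CPM with vehicle (ratio 0.262, 0.188 to 0.358), Klra9 15.9 against 35.6 CPM, Klra1 43.9 against 77.9 CPM and Klra3 46.5 against 72.2 CPM, and at lower levels Klra6 (2.17 against 12.4 CPM) and Klra5 (8.91 against 15.8 CPM). Without members that had Cd8a, the ratios of Klra7 and Klra9 were 0.329 and 0.624, against 0.262 and 0.446 with them. These genes are near copies of each other, so their counts may be split between them. Klre1 was lower (158 against 252 CPM), as were Slamf7 (57.8 against 132 CPM) and Cd244 (3.04 against 11.9 CPM), 2 receptors of the SLAM family. Klrd1, at 454 CPM with antibiotics and 605 CPM with vehicle (ratio 0.750, 0.706 to 0.797), did not reach 1.5-fold. The receptors that chose the members had 852 against 762 CPM for Klrk1, 384 against 383 CPM for Klrc1 and 251 against 201 CPM for Klrc2, as a description.

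The signaling chains behind these receptors differed in level. Fcer1g had 85.2 CPM with antibiotics and 214 CPM with vehicle (ratio 0.397, 0.351 to 0.449) and Tyrobp 62.8 CPM with antibiotics and 198 CPM with vehicle (ratio 0.317, 0.275 to 0.364), and they were the 2 genes lower of 9 measured adaptors. Hcst, the partner of NKG2D, had 1079.6 against 1157 CPM. Leaving out members with Cd8a gave ratios of 0.533 for Fcer1g and 0.422 for Tyrobp, and leaving out barcodes with UMIs of other cells gave 0.468 and 0.402. Myeloid cells express both genes. The summed myeloid markers in members were 319 against 884 CPM, but Fcer1g and Tyrobp are themselves in that sum, so it is not separate evidence.

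Transcripts of the cytotoxic granule were lower for 4 of 16 measured genes (2 by the ribosome-free total) and higher for 2. Gzmb, which cleaves caspases in target cells, had 92.6 CPM with antibiotics and 418 CPM with vehicle (ratio 0.221, 0.198 to 0.247). It was read at 1500 UMIs in 9.62% (8.01 to 11.4) of antibiotics members and 29.3% (26.1 to 32.5) of vehicle members, and in 0.986% and 4.15% of B cells (17.2% and 45.7% of members without thinning). Gzma had 34.99 CPM with antibiotics and 124 CPM with vehicle (ratio 0.283, 0.235 to 0.340). At 1500 UMIs a cell it was read in 2.24% of antibiotics members and 7.65% of vehicle members, with up to 35 and 27 UMIs in 1 cell. Its ratio was 0.272 without members that had Cd8a and 0.0708 to 0.468 over all settings. The remaining lower genes were Gzmc (ratio 0.620) and Ctsw, a lymphocyte cathepsin (421 against 633 CPM). Nkg7, a granule membrane protein, had 1569 against 2277 CPM (ratio 0.689, 0.667 to 0.711) and stayed within 1.5-fold. The higher genes were Prf1, the pore-forming protein (10.4 against 5.64 CPM), and Rab27a, which docks granules for release (51.1 against 24.3 CPM). The list median was -0.33 on the log2 scale.

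The chemokine Ccl5 hardly differed between the libraries, with 4103 CPM with antibiotics and 4011 CPM with vehicle (ratio 1.02, 1.001 to 1.05). Its ratio was 1.16 without members that had Cd8a and 0.785 to 1.16 over all settings, so its direction depended on the setting. With cells thinned to 1500 UMIs the median member held 5 UMIs of Ccl5 with antibiotics and 4 with vehicle, and 88.6% and 84.4% of members had at least 1, beside 27.6% and 32.6% of B cells. Of the 12 measured genes of this list 4 were lower and none higher. Xcl1, which draws cross-presenting dendritic cells, had 215 CPM with antibiotics and 437 CPM with vehicle (ratio 0.492, 0.454 to 0.534), and was seen in 24.05% and 45.2% of members at 1500 UMIs. Ifng, which activates macrophages, had 41.1 against 89.5 CPM (ratio 0.459, 0.381 to 0.551), Ccl4 9.56 against 23.1 CPM and Ccl3 1.96 against 13.5 CPM. Il4 had 59.98 against 84.1 CPM (ratio 0.713, 0.603 to 0.843), within 1.5-fold. The ratio of Ccl4 was 0.519 without members that had Cd8a and 0.158 without barcodes that held UMIs of other cells, against 0.413 with all members.

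Of cytokine receptor genes, Il7r, the alpha chain for the survival cytokine IL-7 (GRCm38 chromosome 15, 9505788 to 9530176, minus strand), had 347 CPM with antibiotics and 111 CPM with vehicle (ratio 3.13, 2.80 to 3.51), and 2.62 to 3.50 over all settings tried. At 1500 UMIs it was read in 36.2% (33.5 to 39.02) of antibiotics members and 13.1% (10.8 to 15.6) of vehicle members, and in 4.93% and 2.41% of B cells (60.4% and 29.6% of members without thinning). Il18rap, a chain of the IL-18 receptor, was higher (41.5 against 23.99 CPM) and Il15ra lower (9.56 against 15.2 CPM), and these were the 3 called of 25 measured genes, beside 5.16% higher and 6.58% lower over all genes. By the ribosome-free total 3 were higher and none lower. Of 14 measured survival and death genes, 2 promoters of apoptosis were higher, Bbc3, which encodes PUMA (34.6 against 9.03 CPM), and Bcl2l11, which encodes BIM (41.5 against 23.99 CPM), and Bak1 had 36.3 against 54.7 CPM, lower only by the whole total. The survival gene Bcl2 had 615 against 454 CPM (ratio 1.35, 1.27 to 1.44), short of 1.5-fold by the whole total but past it by the ribosome-free total, where 3 genes of the list were higher. In the Gimap family of lymphocyte survival GTPases, 1 of 8 was called, Gimap5 with 523 against 301 CPM.

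Genes that glucocorticoids induce in lymphocytes were higher in 5 of 10 measured cases (7 by the ribosome-free total), with a list median log2 ratio of 0.60 (0.41 to 0.76 over all settings). Fkbp5, a chaperone of the glucocorticoid receptor, had 34.1 CPM with antibiotics and 12.98 CPM with vehicle (ratio 2.63, 1.88 to 3.73). Tsc22d3, which encodes GILZ, had 104 CPM with antibiotics and 57.01 CPM with vehicle (ratio 1.83, 1.55 to 2.17), Txnip 278 against 165 CPM, Klf9 21.3 against 11.6 CPM and Pik3ip1 74.97 against 46.3 CPM. Dusp1, which glucocorticoids induce but which is also an immediate early gene, had 89.3 against 144 CPM and was lower by the whole total only. Hormone levels were not measured.

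Immediate early and heat shock genes were lower for 11 of 24 measured genes (9 by the ribosome-free total) and higher for 1, with a median of -0.50 (-0.56 to -0.35 over all settings). Hspa1a, an inducible HSP70, had 12.2 CPM with antibiotics and 237 CPM with vehicle (ratio 0.0513, 0.0384 to 0.0672) and its neighbor copy Hspa1b 0.435 against 68.9 CPM, from 2 and 244 UMIs. Dnajb1, its cochaperone, had 54.98 against 127 CPM. The AP-1 genes Fos (50.8 against 148 CPM), Jun (139.9 against 287 CPM) and Junb (273 against 509 CPM) were lower too. Zfp36l2, an RNA-binding repressor, was the gene higher in this list (382 against 188 CPM). Such genes respond to tissue dissociation as well as to signals in vivo, and handling of the 2 libraries and treatment cannot be told apart. B cells of the same libraries had 151 and 368 CPM of Hspa1a, so the direction there was the same.

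Interferon-response genes were lower for 14 of 27 measured genes (13 by the ribosome-free total) and higher for none, with a median of -0.61 (-0.81 to -0.45 over all settings). The rule capped 5 genes of this list in both libraries, and 3 of the 14 (Ifit1, Ifit3 and Isg15) are among them. Of the other 24 measured genes 11 were lower, with a median of -0.58, and the cap removed 4 barcodes with antibiotics and 22 with vehicle. Ifi27l2a had 206 CPM with antibiotics and 798 CPM with vehicle (ratio 0.259, 0.240 to 0.278), Rtp4 41.5 against 112 CPM, Ifitm3 6.30 against 41.5 CPM and Bst2, which tethers virions, 102 against 181 CPM. Ly6e had 2274 against 1957 CPM and Shisa5 1534 against 1667 CPM, within 1.5-fold. Without barcodes that held UMIs of other cells, the list's median was -0.66 and the ratio of Ifi27l2a 0.242.

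Cytoskeleton, S100 and galectin genes, which accompany effector differentiation and motility, were lower for 12 of 20 (7 by the ribosome-free total) and higher for none, with a median of -0.61 (-0.64 to -0.45 over all settings). Lgals1, which encodes galectin 1, had 127 CPM with antibiotics and 624 CPM with vehicle (ratio 0.203, 0.185 to 0.223). It was read at 1500 UMIs in 15.01% (13.04 to 17.2) of antibiotics members and 51.5% (47.98 to 54.97) of vehicle members, and in 9.99% and 16.1% of B cells (30.2% and 75.8% of members without thinning). S100a4 had 31.3 against 135 CPM, S100a6 255 against 583 CPM and Anxa2 44.1 against 105 CPM. The abundant cytoskeletal genes Tmsb4x, which binds actin monomers (13050.3 against 20716 CPM), and Actb (5058 against 7609 CPM) were lower by just over 1.5-fold, and by less than that under the ribosome-free total. Vim, an intermediate filament gene, had 20.6 against 53.6 CPM. Myeloid cells express several of these, and without barcodes that held UMIs of other cells the ratio was 0.207 for Lgals1, 0.264 for S100a4 and 0.473 for S100a6.

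Class I presentation genes were lower for 4 of 20 measured by the whole total and for none by the ribosome-free total, where 1 was higher. The 4 were the nonclassical molecules H2-T23, which encodes the Qa-1 read by NKG2A (98.4 against 150.1 CPM), and H2-M3 (46.3 against 72.2 CPM), the immunoproteasome subunit Psmb9 (177 against 274 CPM) and the chaperone Calr (233 against 378 CPM). The T cell receptor complex had 2 of 15 lower, Trdc (ratio 0.512, 0.420 to 0.624) and, by the whole total only, Tcrg-C4 (0.636, 0.572 to 0.707), and no alpha-beta or CD3 gene reached 1.5-fold. Of 11 coreceptor and costimulation genes 3 were lower, Cd7 (218 against 380.4 CPM), Cd48 (182 against 331 CPM) and Cd8a (6.52 against 33.6 CPM). Without members that had Cd8a, the ratio of Cd7 was 0.729 and within 1.5-fold.

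Of 20 measured innate-like T transcription factors 1 was higher, Prdm1, which encodes BLIMP-1 (13.5 against 6.77 CPM), and 2 were lower, Id3 (11.3 against 19.8 CPM) and, by the whole total only, Zbtb7b, which encodes ThPOK (28.7 against 43.7 CPM). Over all genes 5.16% were higher and 6.58% lower, so the factor counts lie near the background. Tbx21, the factor of the IFN-γ program, had 87.8 CPM with antibiotics and 96.2 CPM with vehicle (ratio 0.912, 0.788 to 1.06), Id2 2645 CPM with antibiotics and 2397 CPM with vehicle (ratio 1.10, 1.07 to 1.13) and Zbtb16 a ratio of 1.01, 0.810 to 1.27. The factor list's median log2 ratio was 0.08, and its sign changed between settings. Markers of the NKT1 subset had 1 higher and 2 lower of 10, those of NKT2 1 higher and 1 lower of 8, and none of 3 measured NKT17 genes was called (1 higher by the ribosome-free total). Counts this small in lists this short do not set the NKT subsets apart from all genes. Homing and residency genes had 1 higher and 5 lower of 19 (2 lower by the ribosome-free total). S1pr1 was higher (14.99 against 9.03 CPM), and the lower genes included, by the whole total only, the integrin gene Itgb7 (151 against 245 CPM) and the G-protein regulators Rgs1 (151 against 227 CPM) and Rgs2 (66.1 against 106 CPM). Activation and checkpoint genes had 1 higher and 1 lower of 13, naive T cell genes 1 higher and 1 lower of 6, and the 1 measured gene of mucosal-associated invariant T cells was not called. Of 5 measured cell cycle genes 2 were lower, Stmn1 (5.65 against 45.7 CPM) and 2810417H13Rik (0.869 against 21.2 CPM).

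**Figure D5:**
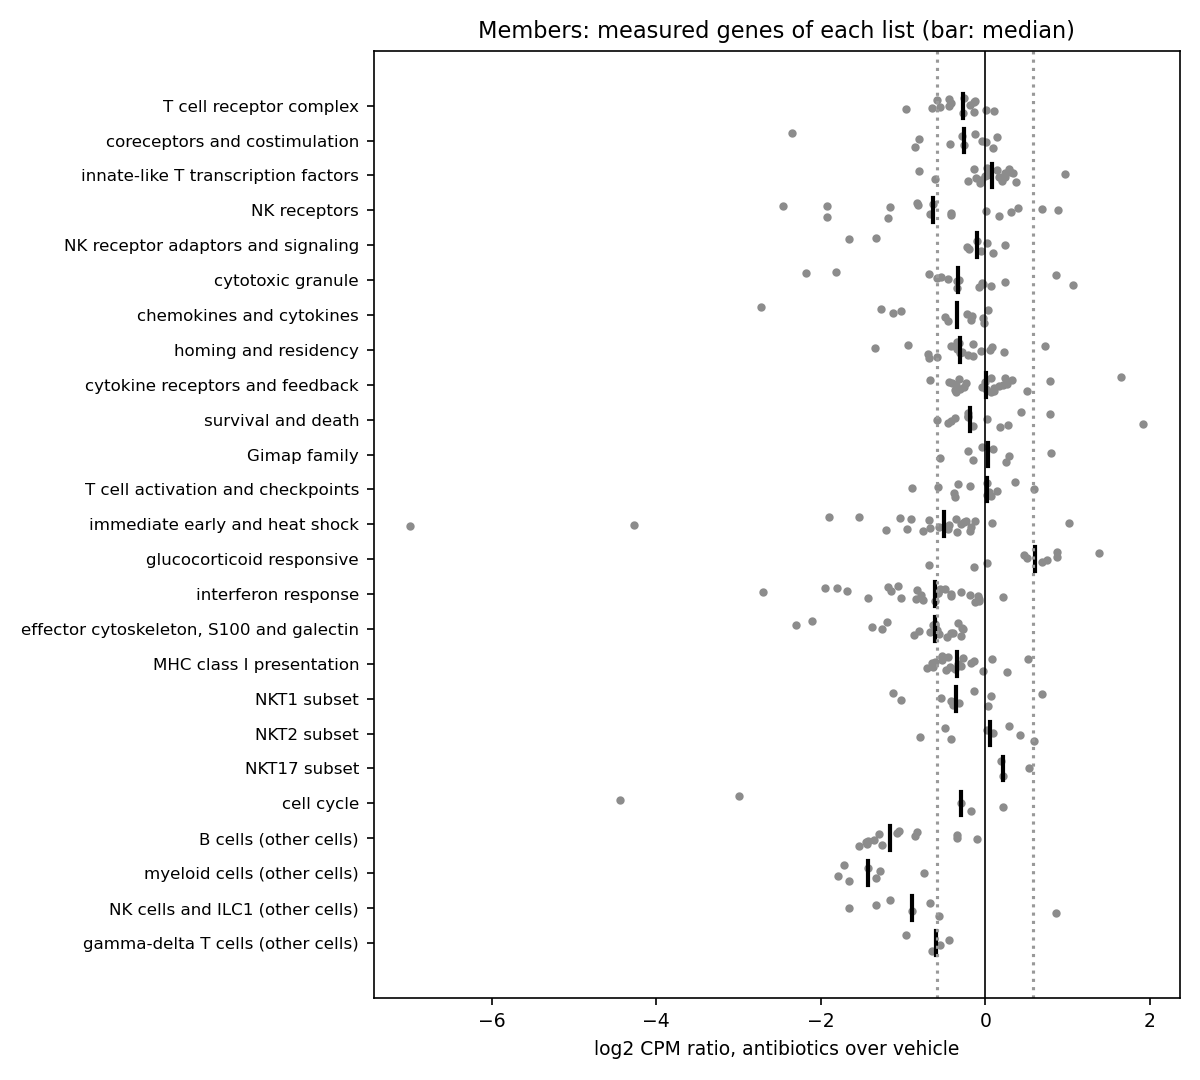
Log2 CPM ratio of antibiotics over vehicle members (x axis) for the measured genes of each gene list shown (y axis, 1 point per gene, black bar the list's median, dotted lines 1.5-fold either way). Glucocorticoid-responsive genes sit to the right with a median of 0.60, and NK receptors (-0.64), interferon-response genes (-0.61) and cytoskeleton genes (-0.61) to the left. The NK receptor and interferon lists include genes of the rule.

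Outside the lists, the ranked higher genes were led by Tmem106b, a lysosomal membrane protein, with 111 CPM with antibiotics and 26.5 CPM with vehicle (ratio 4.17, 3.34 to 5.25). The cold-inducible RNA-binding genes Cirbp, with 410.5 CPM with antibiotics and 147 CPM with vehicle (ratio 2.80, 2.54 to 3.09), and Rbm3 (1109 against 565 CPM) were higher together. Serinc3, a membrane protein, had 488 against 215 CPM, the phosphatase gene Dusp2 301 against 146 CPM, Klhl6 106 against 49.4 CPM, Tespa1, which acts in T cell receptor signaling, 146 against 76.2 CPM, and the linker histone gene H1f0 128 against 70.3 CPM. Lower genes outside the lists were Rsrp1 (214 against 461 CPM), Asb2, a ubiquitin ligase subunit (68.02 against 157 CPM), and Acot7 (54.5 against 125 CPM).

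The same genes were read in the other populations, where most values ran the same way. Il7r had 301 against 124 CPM in Cd4-positive, 357 against 125 CPM in NK-receptor-low, 325 against 134 CPM in Trav11-positive, 160.2 against 50.7 CPM in Ncr1-positive and 474 against 269 CPM in Cd8b1-positive cells, antibiotics against vehicle. Klrb1c had 526 against 264 CPM in Cd4-positive, 573 against 282 CPM in NK-receptor-low and 1387 against 841 CPM in Ncr1-positive cells. For Gzmb the values were 38.2 against 187, 36.9 against 198 and 1119 against 2664 CPM in those 3 populations, while in Cd8b1-positive cells they were 45.99 against 45.3 CPM. Lgals1 had 267 against 766 CPM in Cd4-positive and 174 against 670.4 CPM in NK-receptor-low cells, and Ifi27l2a 379.9 against 1036 and 233 against 967 CPM. Cirbp had 389 against 131 CPM in Cd4-positive cells and 491 against 188 CPM in B cells. With 1 library for each condition, whether any of these differences was larger in members than elsewhere was not tested.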

How the data were processed

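CD45+ leukocytes of mouse liver were profiled with 10x Chromium 3′ chemistry, 1 library with antibiotics and 1 with vehicle. The authors deposited raw UMI counts, made per the labels with bcl2fastq and Cell Ranger on mm10. Their versions and the gene annotation are not given in the sources used here. Deposited count matrices held 28692 genes for all 737280 kit barcodes, without cell calling, so the limits of 1500 UMIs and 10% mitochondrial UMIs were applied here. Identical UMIs were collapsed upstream and reads that match several genes are uncertain.

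UMIs were summed over members for each library and scaled to CPM. Ratios have exact conditional Poisson intervals and shares Clopper-Pearson intervals, at 95%, covering counting error only. With 1 library for each condition no test was made, and a gene was called at 1.5-fold among genes with at least 50 UMIs over both libraries. Comparisons with other populations demanded the same direction in both libraries. For the share of cells in which a gene was read, each cell was thinned to 1500 UMIs. Log2 ratios had 0.5 added to counts. The calls were tested on simulated independent Poisson counts, the model that the intervals assume. That check does not cover UMIs clustered in few cells or differences between replicate libraries.

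The members and the 31 gene lists were chosen with earlier results of these data known. Genes named in the text were those of the rule, the markers, the 5 genes of highest CPM and every called gene of each list, the 15 higher and 15 lower genes of at least 100 CPM by the interval bound nearest 1, and up to 10 genes in each direction for each population comparison. Genes of the population comparisons outside that rule (Themis, Ccr7, Itga4, Ccr9, Emb and Clnk) were chosen after their values were seen, as were the subgroups by Cd8a. A few list genes are counted but not reported by name here. Alternatives were a limit of 2500 UMIs, thinning, a mitochondrial limit of 5%, a receptor sum of 3, leaving out Trdc, Cd8a, doublets or UMIs of other cells, other scalings, a mean over cells, a correction for free RNA and no UMI minimum. Positions and sequences came from GENCODE vM21 on GRCm38, which is mm10. Scrublet ran in scanpy 1.11.5, and the rest in Python 3.11.15 with numpy 2.4.6, scipy 1.17.1, pandas 2.3.3 and matplotlib 3.10.9.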

Additional observations from a re-analysis of the deposited data

Results flagged for a closer look

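Barcodes below the limit of 1500 UMIs entered no comparison, but a few of them met every gene threshold of the rule, and they are given here as a signal outside the main measurement. Among barcodes of 500 to under 1500 UMIs with under 10% of them mitochondrial, 10 of 228 with antibiotics (4.39%) and 3 of 432 with vehicle (0.694%) met the thresholds on Trac, Cxcr6, the receptor sum and the excluded genes.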

How the results depend on the processing

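No paired analysis was possible because each condition had 1 library, and for the same reason no replicate could be left out. The ratio of the members' shares was 1.70 with barcodes thinned to 1500 UMIs and 2.35 without members that held UMIs of other cells, and between 1.89 and 1.97 under the other 6 alternatives, one of which, leaving out members with Cd8a, was chosen after seeing the data. Thinning gave 227 higher and 312 lower genes with antibiotics, the total without ribosomal, mitochondrial and rule genes 773 and 296, and no minimum on UMIs 2535 and 2577. Of the 409 higher and 522 lower genes, 59 and 126 were still called after thinning, 275 and 332 without UMIs of other cells, and 354 and 425 with free RNA subtracted. Thinning also left 8 genes lower in members than in Cd4-positive cells and 24 lower than in NK-receptor-low cells, and fewer UMIs then reach the minimum. Of 134 called genes followed through the alternatives, 132 kept their direction wherever they had enough UMIs, and 93 of the 134, 91 of them without a turn, had enough in every alternative. Irf8 turned to a log2 ratio of 0.0202 with thinning, against -0.89 for all UMIs, and Cst3 to 0.0530 without UMIs of other cells, against -1.43. Medians of 19 of 27 lists kept their sign. Genes of few UMIs, such as Klra6, Cd244 and Prf1, are limited by depth, and no alternative stands in for a replicate library.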
